A study of Mus musculus with 8 samples.

Results

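The genes described here encode the subunits of the cytochrome bc1 complex (complex III), cytochrome c oxidase (complex IV) and ATP synthase (complex V), the last 3 machines of oxidative phosphorylation. They were taken from the deposited table by symbol: names that start with Uqcr, with Cox followed by 4 to 8, with Atp5, mt-Co, mt-Cytb or mt-Atp, and Cyc1. That gave 51 of the 21959 listed genes, of which 45 are nuclear and 6 are encoded by mitochondrial DNA. A second Ensembl entry named Atp5o was listed at 0 in every library and is left out below. RNA came from oocytes of mouse ovaries at postnatal day 1 (P1), 4 libraries from wild type and 4 from Rbpms2 knock out animals, each a tube of 5 to 10 putative primordial oocytes picked by mouth pipette and amplified for 18 cycles. Rbpms2 encodes an RNA-binding protein that the title of the series ties to oocytes early in life. The question is how RNA levels change in its absence. The labels give no strain, allele, Cre driver or sample-to-animal map, so a p-value speaks of differences among tubes only, whose spread could be technical.

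Complex III passes electrons from ubiquinol to cytochrome c, complex IV passes them from cytochrome c to oxygen, and both pump protons whose return flow drives ATP synthase. Each complex is built from products of both genomes: cytochrome b, the catalytic oxidase subunits 1 to 3 and ATP synthase subunits a and A6L come from mitochondrial DNA, and all other subunits are imported. Several nuclear oxidase subunits exist as paralogs with tissue-restricted expression, such as forms known from heart and skeletal muscle (Cox6a2, Cox7a1, Cox8b), from lung and hypoxic cells (Cox4i2) or from testis (Cox6b2, Cox7b2, Cox8c). Mitochondria of the oocyte are the ones inherited by the embryo, and growing oocytes rely on oxidative phosphorylation of pyruvate.

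Promoter sequence is shown for 3 oxidase genes on which the results below turn: Cox7b2, which of all members rose most, and Cox7b and Cox8a, the widely expressed paralogs of the genes that rose. RefSeq promoters (GRCm38.p6, 250 bases before to 50 after the annotated start) matched 31 of the 51 genes, and Cox4i2 and Cox8c were not among them. Capitals mark matches to CCGGAAG (core of ETS factors such as GABPA), the core of the NRF1 palindrome, AAGATGGC (YY1), GGGCGG (SP1 box), GGCGGGA (E2F) or CACGTG (E-box), searched on both strands. The windows lie at chr5:71548156-71548455 (minus strand), chrX:106015450-106015749 (plus strand) and chr19:7217567-7217866 (minus strand).
Cox7b2: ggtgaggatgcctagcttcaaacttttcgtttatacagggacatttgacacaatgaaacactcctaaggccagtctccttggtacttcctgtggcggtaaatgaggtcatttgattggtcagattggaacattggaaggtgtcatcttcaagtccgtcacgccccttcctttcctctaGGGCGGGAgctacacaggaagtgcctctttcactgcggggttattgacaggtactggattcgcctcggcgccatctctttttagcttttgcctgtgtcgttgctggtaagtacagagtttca
Cox7b: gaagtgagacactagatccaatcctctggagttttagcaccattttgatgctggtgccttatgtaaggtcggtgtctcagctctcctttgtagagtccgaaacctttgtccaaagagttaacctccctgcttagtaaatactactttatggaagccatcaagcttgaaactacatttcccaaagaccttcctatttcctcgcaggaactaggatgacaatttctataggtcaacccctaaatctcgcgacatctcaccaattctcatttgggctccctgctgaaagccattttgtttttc
Cox8a: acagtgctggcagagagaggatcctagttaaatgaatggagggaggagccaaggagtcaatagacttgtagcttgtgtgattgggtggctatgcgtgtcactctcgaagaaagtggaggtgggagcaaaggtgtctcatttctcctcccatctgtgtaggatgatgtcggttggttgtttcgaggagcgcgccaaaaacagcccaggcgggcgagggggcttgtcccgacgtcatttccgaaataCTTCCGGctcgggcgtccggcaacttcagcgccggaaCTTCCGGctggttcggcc
The Cox7b2 window held 2 overlapping matches, to the SP1 and E2F letters. That of Cox8a held 2 ETS matches, and that of Cox7b held none of the 6 motifs.

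NRF1 and GABPA are textbook activators of respiratory genes. The NRF1 letters were in 4 of 31 member promoters against 0.977% of all 27025 (the members were Atp5g2, Atp5k, Cox6a1 and Uqcrc1). The ETS letters were in 9 of 31 against 9.12%, the E2F letters in 7 of 31 against 11.4% and the SP1 letters in 10 of 31 against 35.9%. YY1 letters were found in 1 member promoter (Atp5j2) against 2.88% of all, and CACGTG in 3 against 7.24%. These counts describe letters in a window.

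Depth and marker genes differed among the libraries. The FPKM steps gave 8310403 to 11926442 whole reads in listed genes in single libraries of wild type, and 9554049 to 14526290 in those of knockout. The targeted gene, Rbpms2, had 158, 167, 136 and 213 FPKM in wild type and 38.4, 58.3, 31.0 and 42.5 FPKM in knockout, 3.96-fold lower without overlap, and since the labels name no deleted exon these remaining reads check the labels only in part. Figla, an oocyte transcription factor gene, was 4.30-fold lower. Oocyte markers (8 genes) summed to 2305 to 3598 FPKM in wild type and 1724 to 2759 FPKM in knockout. These overlapping sums cover opposite changes, as 5 of the 8 were called lower and 3 higher. Their log2 fold changes ran from -9.20 to 1.83, with a median of -2.60. The 3 of the list with the smallest adjusted p, given next, all fell. Zp3, a zona pellucida gene, had a mean of 724 FPKM in wild type and 0.151 FPKM in knockout (at 0 in replicates 1 and 2). The oocyte growth factor gene Gdf9 had means of 231 and 0.355 FPKM and the receptor gene Kit of 219 and 32.3 FPKM, without overlap. These oocyte genes fell in the same libraries as Cox4i2 below, and their part in the members' values was not tested. Granulosa markers (12 genes) summed to 2.10 to 48.6 and 9.62 to 399.9 FPKM, stromal markers (11 genes) to 14.1 to 112 and 12.5 to 427 FPKM, immune markers (10 genes) to 7.05 to 24.1 and 17.4 to 449 FPKM. Endothelial markers (8 genes) summed to 1.99 to 2.84 and 3.23 to 299 FPKM and erythroid markers (7 genes) to 11.9 to 5368 and 99.6 to 3212 FPKM. Foxl2 was at 0 in wild-type replicate 1 and Ptprc in wild-type replicates 1 and 4. Granulosa, stromal and immune sums were highest in knockout replicates 2 and 3 and, among wild type, in replicate 3, and the endothelial sum was highest in knockout replicate 1. When the 3 libraries highest in granulosa and in stromal markers (wild-type replicate 3, knockout replicates 2 and 3) were dropped, which keeps knockout replicate 1 with its endothelial markers, 8 genes of the 3 complexes were called higher and 15 lower, against 8 and 16 with all libraries. That fit called 2007 of all 11235 tested genes higher and 2955 lower. It still called 3 of 6 tested immune markers higher and 1 lower, so it does not remove the difference in immune markers.

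Of the 51 genes, 47 had an FPKM (fragments per kilobase of transcript, scaled to the library's reads) of 1 or more in at least 4 libraries and were tested with limma on log2(FPKM + 1). Over all 11235 genes tested, 17.7% were called higher in knockout and 25.6% lower (43.4% in either direction) at a Benjamini-Hochberg adjusted p under 0.05. Among the 47, 8 were called higher and 16 lower, and 23 did not pass. Levels did not overlap between genotypes in 7 members that were higher and 14 that were lower, against 15.9% and 24% of all genes tested. The share called higher (17.0%) was thus near that of all genes and the share called lower (34.0%) above it, and no test was made of that difference. The members' median log2 fold change was -0.22 against -0.12 for all tested genes. Without wild-type replicate 4, 5 were called higher, beside 1516 of all 11235 genes. After median-of-ratios scaling, which moved the median of all genes from -0.12 to 0.0030, 9 were higher and 12 lower. That scaling called 2313 of 11158 genes higher and 2493 lower, so the members' share called lower came closer to that of all genes.

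**Figure D1:**
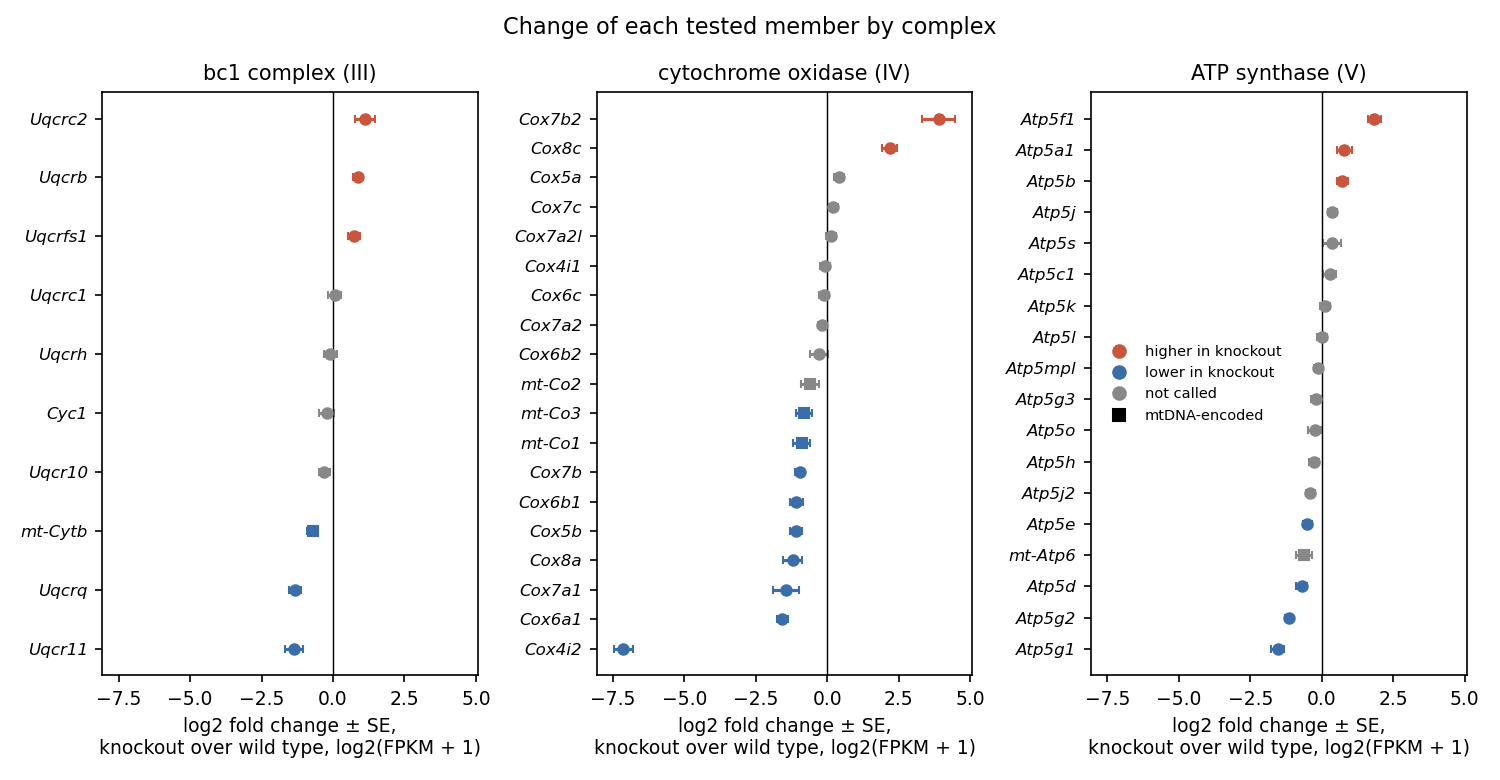
The log2 fold change of knockout over wild type with its standard error is plotted for each of the 47 tested genes, 1 panel per complex, on the log2(FPKM + 1) scale. Red points were called higher, blue lower and grey neither, and the squares, encoded by mitochondrial DNA, all lie left of 0, with Cox4i2 at -7.14 and Cox7b2 at 3.90.

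By complex, the oxidase held most of the lower calls. Of 16 tested nuclear oxidase genes 7 were lower and 2 higher (43.8% and 12.5%). Of 9 nuclear bc1 genes 2 were lower and 3 higher (22.2% and 33.3%). Of 17 nuclear ATP synthase genes 4 were lower and 3 higher (23.5% and 17.6%). Over all tested genes the shares were 25.6% lower and 17.7% higher. The bc1 and ATP synthase shares called lower were thus near that of all genes, and no test was made of the differences. Summed over the nuclear genes of a complex, the oxidase stood at 6988, 7192, 7302 and 7051 FPKM in wild-type replicates 1 to 4 and at 4926, 5614, 5678 and 4468 FPKM in knockout replicates 1 to 4 (replicates are in this order throughout). Every knockout sum was below every wild-type sum, with means of 7133 ± 141 and 5171 ± 579 FPKM (SD, n = 4 each). A large part of that difference lay in 1 gene, Cox6a1, with means of 1631 and 552 FPKM, and 7 of the 16 genes were not called. The bc1 sums overlapped, at 2749 ± 459.9 and 2245 ± 266 FPKM. So did those of ATP synthase, at 3030.4 ± 152 and 3259 ± 205 FPKM. These sums carry no test. FPKM is relative to each library's reads, so in these bulk tubes a smaller share of oocytes among the cells and less of these RNAs per oocyte cannot be told apart.

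Cox4i2 was present in every wild-type library and close to absent in knockout. The gene (ENSMUSG00000009876, chromosome 2, 152754173 to 152765037, plus strand, GRCm38) encodes the alternative form of oxidase subunit 4, a subunit that binds adenine nucleotides and sets the response of the enzyme to the energy state. Wild-type libraries had 278, 243, 163 and 267 FPKM and knockout libraries 0, 2.09, 0.746 and 0.398 FPKM. The lowest wild-type value was thus far above the highest knockout value, and the reads behind them numbered 2612, 1905, 1083 and 1751 in wild type and 0, 24, 7 and 3 in knockout. Its mean fell from 238 ± 51.9 to 0.81 ± 0.909 FPKM (SD, n = 4 each), 294-fold lower as a ratio of means (log2 fold change -7.14, standard error 0.33, limma adjusted p = 2.37e-07). It remained called under all 21 alternatives. The ubiquitous form Cox4i1 had 943, 983, 921 and 940.0 FPKM in wild type and 825, 1121, 747 and 932 FPKM in knockout, with overlap. No difference was called for Cox4i1 (log2 fold change -0.08, 95% interval -0.44 to 0.28, limma adjusted p = 0.721), although after the GC correction described below it was called higher (log2 fold change 0.50, limma adjusted p = 0.0377). Cox4i2 held 22.7, 19.8, 15.0 and 22.1% of the summed FPKM of the pair in wild type and 0, 0.186, 0.0998 and 0.0427% in knockout. In wild-type P1 oocytes the alternative form thus held 19.9% ± 3.50 of the pair's FPKM (SD, n = 4), against 0.0822% ± 0.0806 (SD, n = 4) in knockout. Annotated exons add up to 1550 bases for Cox4i1 and 788 for Cox4i2, while their longest coding transcripts have 765 and 733 bases. Wild-type reads numbered 7351 for Cox4i2 and 56761 for Cox4i1, so the share of FPKM is not a share of RNA molecules.

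Testis-type forms of subunits 7b and 8 moved the other way. Cox7b2 (ENSMUSG00000049387, chromosome 5, 71442824 to 71548205, minus strand) had 23.9, 32.7, 50.9 and 3.99 FPKM in wild type and 436, 273, 307 and 293 FPKM in knockout. All knockout libraries were above all wild-type libraries, and wild-type replicate 4 was lowest. The mean rose 11.7-fold, from 27.9 ± 19.5 to 327 ± 73.7 FPKM (SD, n = 4 each, log2 fold change 3.90, standard error 0.58, limma adjusted p = 3.95e-04). Its paralog Cox7b, on the X chromosome, had 315, 331, 305 and 287 FPKM in wild type and 151, 163, 194 and 130.5 FPKM in knockout. Those groups did not overlap either, with Cox7b 1.94-fold lower in knockout (log2 fold change -0.97, standard error 0.17, limma adjusted p = 9.51e-04). The pair as a whole stood at 337 ± 32.9 FPKM in wild type and 487 ± 74.9 FPKM in knockout (SD, n = 4 each). Cox7b2 held 7.93% ± 5.33 of it in wild type and 66.9% ± 6.01 in knockout (SD, n = 4 each). By FPKM the minor form in every wild-type library was thus the major form in every knockout library. Annotated exons add up to 1214 bases for Cox7b and 542 for Cox7b2. Knockout reads numbered 9331 for Cox7b and 8416 for Cox7b2, with more for Cox7b in knockout replicates 2 and 3. The share of FPKM is therefore not a share of RNA molecules, and which form was major in knockout depends on annotated length.

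Cox8c (ENSMUSG00000043319, chromosome 12, 102899316 to 102900526, plus strand) had 63.4, 53.8, 76.1 and 46.7 FPKM in wild type and 366, 262, 347 and 164 FPKM in knockout. No library of one genotype reached the range of the other, and the mean was 4.75-fold higher in knockout (60.0 ± 12.7 against 285 ± 92.2 FPKM, SD, n = 4 each, log2 fold change 2.19, standard error 0.26, limma adjusted p = 1.13e-04). Its ubiquitous counterpart Cox8a had 632, 851, 838 and 655 FPKM in wild type and 205, 429, 586 and 196 FPKM in knockout, with knockout replicates 2 and 3 nearest to wild type. Cox8a was called lower (log2 fold change -1.21, standard error 0.33, limma adjusted p = 0.0128), but not after the GC correction (log2 fold change -0.61, limma adjusted p = 0.136). The muscle form Cox8b had at most 0.933 FPKM in any library and was not tested. Cox8c held 7.51% ± 1.47 of the summed FPKM of the 3 genes in wild type and 46.2% ± 12.6 in knockout (SD, n = 4 each), with 64.1, 37.9, 37.1 and 45.6% in the single knockout libraries. Annotated exons add up to 619 bases for Cox8a and 458 for Cox8c, and knockout reads numbered 10829 and 6319. These are thus not shares of RNA molecules. Cox7b2 and Cox8c were called higher under all 21 alternatives, including the fit without the 3 libraries highest in granulosa and stromal markers. As that fit still called immune markers higher, the part of other cells in these values was not tested.

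No call was made for Cox6b2. This gene, the testis paralog of subunit 6b, had 201, 135, 114 and 67.5 FPKM in wild type and 117, 63.2, 105 and 121 FPKM in knockout. These ranges overlapped and no difference was called (log2 fold change -0.29, 95% interval -0.99 to 0.42, limma adjusted p = 0.494). The ubiquitous Cox6b1 was lower, with 718, 585, 652 and 645 FPKM against 294, 345, 436 and 198 FPKM (log2 fold change -1.08, standard error 0.23, limma adjusted p = 0.00312). The share of Cox6b2 in the pair's FPKM was 16.2% ± 5.33 in wild type and 25.3% ± 9.98 in knockout (SD, n = 4 each), with overlap between the genotypes.

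**Figure D2:**
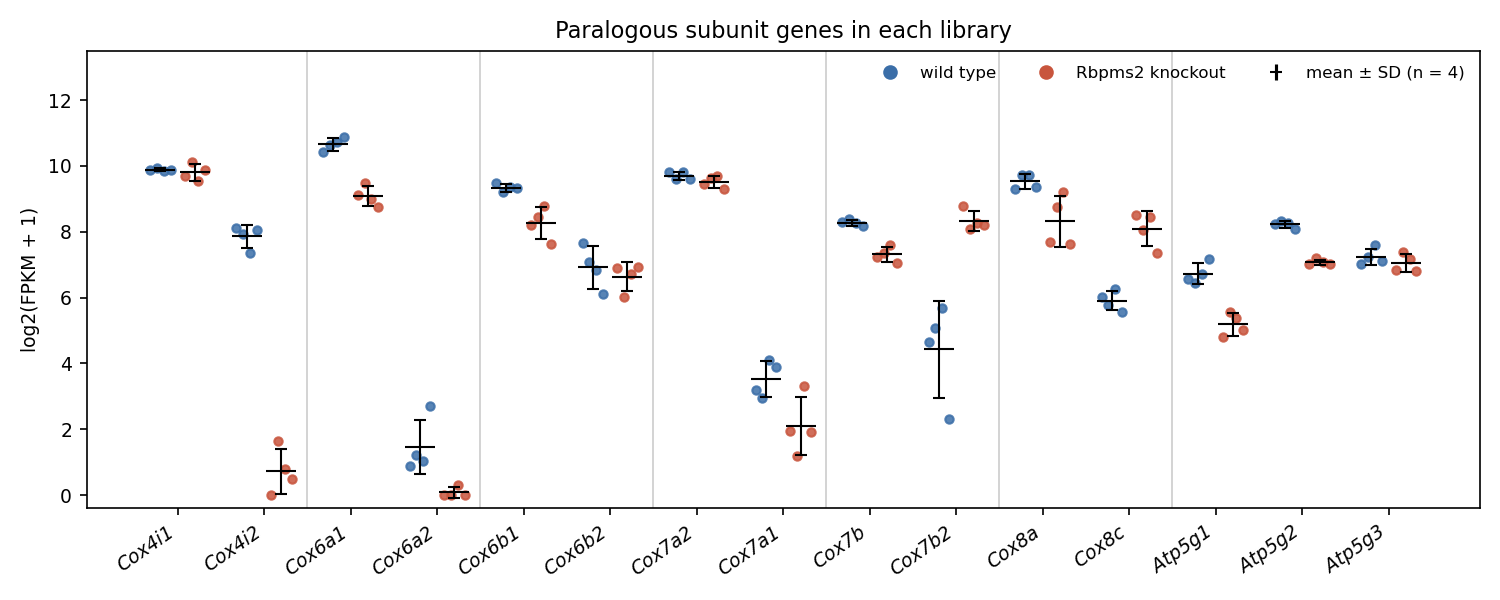
Each point is 1 library on the log2(FPKM + 1) scale for paralogous subunit genes, wild type in blue and knockout in red, with the mean and SD of 4 libraries in black. Grey lines separate the sets. Cox4i2 sits near 0 in knockout, and Cox7b2 and Cox8c sit above their wild-type points while Cox7b and Cox8a sit lower.

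Among the muscle-type forms, Cox7a1 was low in both genotypes and lower in knockout. It had 8.14, 6.77, 16.2 and 13.9 FPKM in wild type and 2.88, 1.29, 8.95 and 2.74 FPKM in knockout, where replicate 3 lay inside the wild-type range (log2 fold change -1.45, standard error 0.44, limma adjusted p = 0.0218). That call ended without wild-type replicate 3 (limma adjusted p = 0.0616) or 4 (limma adjusted p = 0.0664) or knockout replicate 2 (limma adjusted p = 0.0569), after the GC correction (limma adjusted p = 0.0776) and on recovered reads (limma-voom adjusted p = 0.133). Summed muscle markers (7 genes, Ckm at 0 in all libraries) ranged from 7.47 to 20.4 FPKM in wild type and 1.01 to 10.6 FPKM in knockout, and their part in the Cox7a1 and Cox6a2 values was not tested. Cox7a2, the widely expressed form of subunit 7a, had 836 ± 71.8 FPKM in wild type and 737 ± 89.0 FPKM in knockout (SD, n = 4 each) and did not pass (95% interval -0.53 to 0.16 on the log2 scale, limma adjusted p = 0.356). Cox7a2l, which joins complexes III and IV into supercomplexes, had 199 ± 46.3 and 214 ± 20.8 FPKM (limma adjusted p = 0.614). Cox6a2, the muscle form of subunit 6a, was at 0.862, 1.33, 1.05 and 5.48 FPKM in wild type and 0, 0, 0.247 and 0 FPKM in knockout, with 53 and 2 reads per genotype, and was not tested.

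Cox6a1, the ubiquitous form of subunit 6a, had the highest level of any nuclear gene of the 3 complexes in wild type. It had 1360.0, 1594, 1691 and 1878 FPKM in wild type and 551, 715, 513 and 429 FPKM in knockout, without overlap, and was 2.95-fold lower (log2 fold change -1.58, standard error 0.19, limma adjusted p = 1.10e-04). The summed level of Cox6a1 and Cox6a2 was 1633 ± 217 FPKM in wild type and 552 ± 120.1 FPKM in knockout (SD, n = 4 each). Cox5b, whose product binds zinc on the matrix side of the enzyme, had 363, 385, 491 and 458 FPKM in wild type and 164, 296, 186 and 164 FPKM in knockout. Knockout replicate 2 was the highest of its group yet below all wild-type libraries (log2 fold change -1.10, standard error 0.22, limma adjusted p = 0.00216). Its partner Cox5a did not pass (59.3 ± 8.89 against 79.1 ± 11.8 FPKM, limma adjusted p = 0.0983). Cox6c and Cox7c did not pass either, with log2 fold changes of -0.12 and 0.21, but Cox7c was called lower after the GC correction (log2 fold change -0.59, limma adjusted p = 0.0193). Wild-type FPKM thus ranged from 59.3 for Cox5a to 1631 for Cox6a1 among ubiquitous oxidase genes. Their annotated exons add up to 2101 and 702 bases, against 645 and 571 in their longest coding transcripts. Cox6c, at 3567 exon bases, had 45087 wild-type reads and 322 FPKM, and Cox6a1 had 43506 reads. The range therefore depends on annotated length and is not one of RNA molecules.

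**Figure D3:**
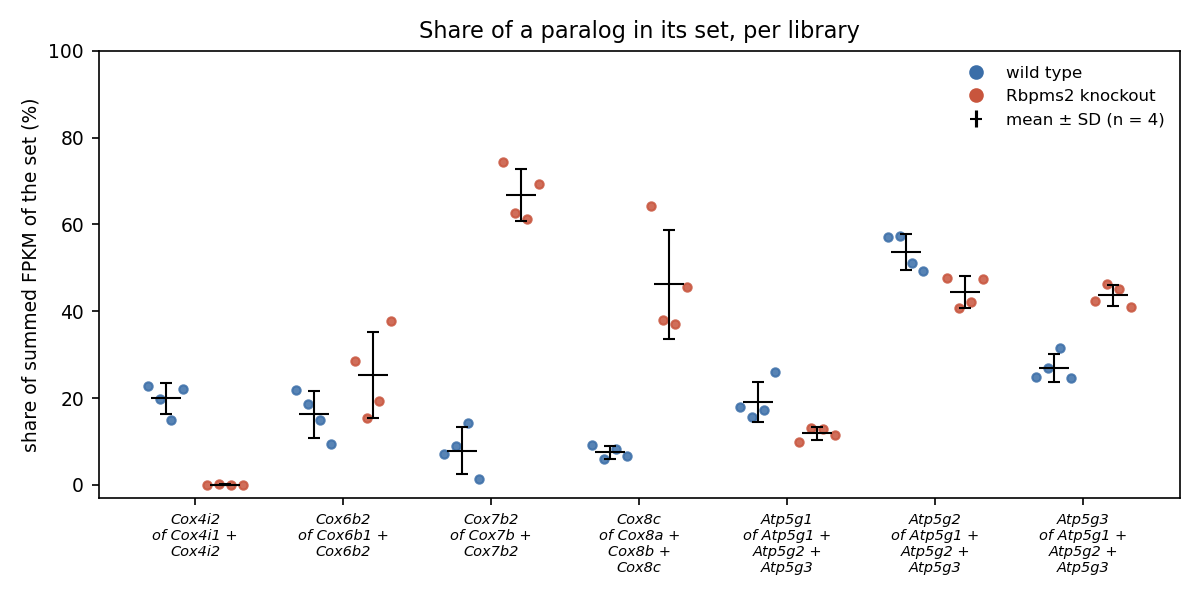
The share of a paralog in the summed FPKM of its set is plotted in percent for each library, wild type in blue and knockout in red, with the mean and SD of 4 libraries. Cox7b2 goes from 7.93% to 66.9% and Cox8c from 7.51% to 46.2%, while Cox4i2 goes from 19.9% to 0.0822%.

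In the bc1 complex, core and accessory genes went in both directions. Uqcrc2, a core protein of the matrix side, had 111, 96.1, 32.5 and 60.4 FPKM in wild type and 177, 142, 118 and 165 FPKM in knockout. The knockout libraries were all higher, and wild-type replicate 3 was lowest (log2 fold change 1.12, standard error 0.34, limma adjusted p = 0.0206). Uqcrb, which lies next to cytochrome b, had 291, 334, 269.5 and 298 FPKM against 616, 431, 641 and 494 FPKM, without overlap (log2 fold change 0.86, standard error 0.17, limma adjusted p = 0.0026). Uqcrfs1, the Rieske iron-sulfur protein, had 116, 85.1, 65.3 and 69.7 FPKM against 148, 115, 134 and 152 FPKM, where knockout replicate 2 lay below wild-type replicate 1 (log2 fold change 0.73, standard error 0.21, limma adjusted p = 0.0164). The calls of Uqcrc2 (limma adjusted p = 0.0572) and Uqcrfs1 (limma adjusted p = 0.0537) ended without wild-type replicate 4, and that of Uqcrc2 also without knockout replicate 1 (limma adjusted p = 0.0551). Uqcrb and Uqcrc2 were not called after the GC correction (limma adjusted p = 0.176 and limma adjusted p = 0.0962). Of the 75-base windows of their transcripts, 29.1% (Uqcrb) and 23.8% (Uqcrc2) also occur in transcripts of other genes. They share 5.71% and 19.75% of their exon bases with exons of other listed genes, so part of their reads could be assigned elsewhere.

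Of the small accessory subunits, 2 were lower. Uqcr11 had 558, 699, 1435 and 895 FPKM in wild type and 319, 544, 252 and 269.6 FPKM in knockout, without overlap, although wild-type replicate 3 was well above the other wild-type libraries (log2 fold change -1.35, standard error 0.32, limma adjusted p = 0.00566). Uqcrq, a ubiquinone-binding accessory protein, had 269.7, 315, 432 and 418 FPKM against 112, 191, 129 and 135 FPKM and was 2.54-fold lower (log2 fold change -1.34, standard error 0.22, limma adjusted p = 7.26e-04). Uqcr11, the bc1 gene with the highest nuclear level in wild type, was not called after the GC correction (log2 fold change -0.72, limma adjusted p = 0.0644), whereas Uqcrq remained called under all 21 alternatives. The electron-carrying subunit cytochrome c1, encoded by Cyc1, had 198, 208, 166 and 178 FPKM in wild type and 166, 261, 97.1 and 155 FPKM in knockout. Knockout values lay on both sides of the wild-type range and no difference was called (log2 fold change -0.22, 95% interval -0.80 to 0.35, limma adjusted p = 0.508). Uqcrc1, Uqcrh and Uqcr10 did not pass, with log2 fold changes of 0.06, -0.09 and -0.30.

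In ATP synthase, Atp5f1 rose most. Its product, subunit b (also named Atp5pb), forms the peripheral stalk that holds the catalytic head still while the rotor turns. Wild-type libraries had 186, 184, 121 and 138 FPKM and knockout libraries 589.7, 652, 373 and 677 FPKM, so that the lowest knockout level was above the highest wild-type level. The rise was 3.64-fold (log2 fold change 1.85, standard error 0.23, limma adjusted p = 1.34e-04) and remained called under all 21 alternatives. The gene shares 8.21% of its exon bases with exons of other listed genes, and 27.9% of the 75-base windows of its transcript also occur in transcripts of other genes (Gm12231, Wdr77 and Gm42890), so part of its reads could be assigned elsewhere. The catalytic head genes Atp5a1 (subunit alpha) and Atp5b (subunit beta) rose as well. Atp5b had 238, 219.6, 159.6 and 212 FPKM in wild type and 382, 409, 249 and 344 FPKM in knockout, without overlap (log2 fold change 0.73, standard error 0.20, limma adjusted p = 0.0137). Atp5a1 had 250.1, 224, 122 and 154 FPKM against 356, 346, 212 and 357 FPKM, with knockout replicate 3 inside the wild-type range (log2 fold change 0.78, standard error 0.26, limma adjusted p = 0.0324). The Atp5a1 call ended without wild-type replicate 3 (limma adjusted p = 0.0828) or 4 (limma adjusted p = 0.0907) and without knockout replicate 1 (limma adjusted p = 0.0810), 2 (limma adjusted p = 0.0716) or 4 (limma adjusted p = 0.0728).

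Other subunits of the same head went down or did not pass. Atp5d (subunit delta of the central stalk) had 223, 209, 190.3 and 158 FPKM in wild type and 127, 156, 98.3 and 103 FPKM in knockout, without overlap (log2 fold change -0.70, standard error 0.20, limma adjusted p = 0.0146). Atp5e (subunit epsilon) had 409.7, 365, 361 and 342 FPKM against 215, 247, 311 and 275 FPKM, without overlap (log2 fold change -0.50, standard error 0.16, limma adjusted p = 0.0289). After the GC correction neither was called (log2 fold changes -0.05 and -0.17). Atp5d was also not called after median-of-ratios scaling (limma adjusted p = 0.0565), nor was Atp5e (limma adjusted p = 0.124). The Atp5e call ended without wild-type replicate 1 (limma adjusted p = 0.0750), 2 (limma adjusted p = 0.0653) or 4 (limma adjusted p = 0.0513) and without knockout replicate 1 (limma adjusted p = 0.0901) or 2 (limma adjusted p = 0.0535). The gamma gene Atp5c1 did not pass (202 ± 47.8 against 248 ± 71.8 FPKM, limma adjusted p = 0.325).

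Of the 3 genes for the ring subunit c, whose products differ in the import sequence and give the same mature protein, 2 were lower and 1 did not pass. Atp5g1 had 93.4, 86.0, 105 and 143 FPKM in wild type and 26.6, 46.6, 40.5 and 31.2 FPKM in knockout, 2.95-fold lower without overlap (log2 fold change -1.54, standard error 0.23, limma adjusted p = 4.19e-04). Atp5g2 had 297, 317, 308 and 272 FPKM against 128, 145, 133 and 128 FPKM, with a narrow range in both genotypes (log2 fold change -1.16, standard error 0.14, limma adjusted p = 1.37e-04), but was not called after the GC correction (log2 fold change -0.36, limma adjusted p = 0.127). Its transcript had 63.3% GC, the highest of the 47 genes. Atp5g3 had 129, 149, 191 and 136 FPKM against 114, 165, 143 and 110.0 FPKM and was not called (log2 fold change -0.19, 95% interval -0.62 to 0.24, limma adjusted p = 0.454). Summed over the 3 genes the level was 557 ± 34.7 FPKM in wild type and 303 ± 42.3 FPKM in knockout (SD, n = 4 each). Atp5g3 held 27.0% ± 3.23 of it in wild type and 43.7% ± 2.47 in knockout, where Atp5g1 and Atp5g2 held 11.8% ± 1.44 and 44.5% ± 3.66 (SD, n = 4 each). Annotated exons of Atp5g1, Atp5g2 and Atp5g3 add up to 4912, 1675 and 2181 bases. Their longest coding transcripts have 4715, 753 and 723 bases, so these are not shares of RNA molecules.

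The remaining ATP synthase genes did not pass. The one with the highest level in wild type, Atp5mpl, a small membrane subunit, had 434, 432, 454 and 455 FPKM in wild type and 420.4, 374, 455 and 384 FPKM in knockout. Its interval on the log2 scale ran from -0.44 to 0.19. The genotypes did not overlap for Atp5j and Atp5j2, although neither was called. Atp5j, a peripheral stalk gene, had 78.7, 73.3, 86.2 and 74.9 FPKM against 98.0, 112, 103 and 93.7 FPKM (limma adjusted p = 0.0706), and Atp5j2 had 135, 139, 154 and 159 FPKM against 107, 113, 121 and 104 FPKM (limma adjusted p = 0.0508). After the GC correction Atp5j was called higher (log2 fold change 0.81, limma adjusted p = 0.00164). Atp5h, Atp5k, Atp5l and Atp5o had log2 fold changes from -0.27 to 0.12. For Atp5l 76.0% and for Atp5o 39.1% of the transcript's 75-base windows also occur in other genes' transcripts, and their wild-type means were 31.2 and 33.9 FPKM. Their annotated exons add up to 6443 and 1972 bases, against 544 and 838 in their longest coding transcripts, which lowers FPKM. Atp5l had 7838 wild-type reads. For Atp5h 36.5% of the 75-base windows also occur in another gene's transcript. Atp5s, a regulatory factor and not a subunit of the core enzyme, was lowest at 13.6 ± 5.65 FPKM in wild type and 17.5 ± 5.57 FPKM in knockout (SD, n = 4 each).

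Members encoded by mitochondrial DNA had lower means in knockout in all 5 tested cases, of which 3 were called. Of all 11235 tested genes, 6102 had a log2 fold change below 0 and 25.6% were called lower. No test was made of that difference. The gene for cytochrome b, mt-Cytb, had 1999, 1921, 2672 and 1913 FPKM in wild type and 1230.0, 1634, 1349 and 997 FPKM in knockout. The highest knockout library (replicate 2) was below the lowest wild-type library (log2 fold change -0.71, standard error 0.19, limma adjusted p = 0.0123). The catalytic oxidase subunit gene mt-Co1 had 1670.3, 2517, 4315 and 3206 FPKM against 1085, 2016, 1769 and 1269 FPKM, where wild-type replicate 1 lay inside the knockout range (log2 fold change -0.89, standard error 0.30, limma adjusted p = 0.032). For mt-Co3 the values were 13.9, 29.4, 33.8 and 33.7 FPKM and 13.7, 15.9, 13.0 and 15.6 FPKM, again with wild-type replicate 1 inside the knockout range (log2 fold change -0.81, standard error 0.28, limma adjusted p = 0.0378). The other two, mt-Co2 (23.4, 68.7, 63.0 and 51.3 FPKM against 29.3, 32.2, 25.4 and 37.8 FPKM) and mt-Atp6 (12.9, 26.9, 29.4 and 20.6 FPKM against 14.1, 13.7, 10.7 and 17.2 FPKM), did not pass (limma adjusted p = 0.133 and limma adjusted p = 0.0955). In each of mt-Co1, mt-Co2, mt-Co3 and mt-Atp6, wild-type replicate 1 was the lowest wild-type library. The gene mt-Atp8 was at 1.65 FPKM or below everywhere, with 3 reads over the wild-type and 8 over the knockout libraries, and was not tested.

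How many of these genes were called depended on single libraries and on the processing. Without wild-type replicate 1 all 5 were called lower. Leaving out knockout replicate 2 or 3 left 2, and leaving out knockout replicate 1 or 4, or any of wild-type replicates 2 to 4, left 1. The count was 0 without a filter, 1 after median-of-ratios scaling or quantile normalization, and 5 after the GC correction, where log2 fold changes ran from -1.40 (mt-Co2) to -1.59 (mt-Co1). The call of mt-Cytb ended only without a filter (limma adjusted p = 0.108). The summed level of the 6 genes was 3720.1, 4563, 7115 and 5224 FPKM in wild type and 2372, 3712, 3169 and 2338 FPKM in knockout, with wild-type replicate 1 only just above knockout replicate 2. Nuclear members summed to 12913 ± 489.9 FPKM in wild type and 10676 ± 862 FPKM in knockout (SD, n = 4 each).

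**Figure D4:**
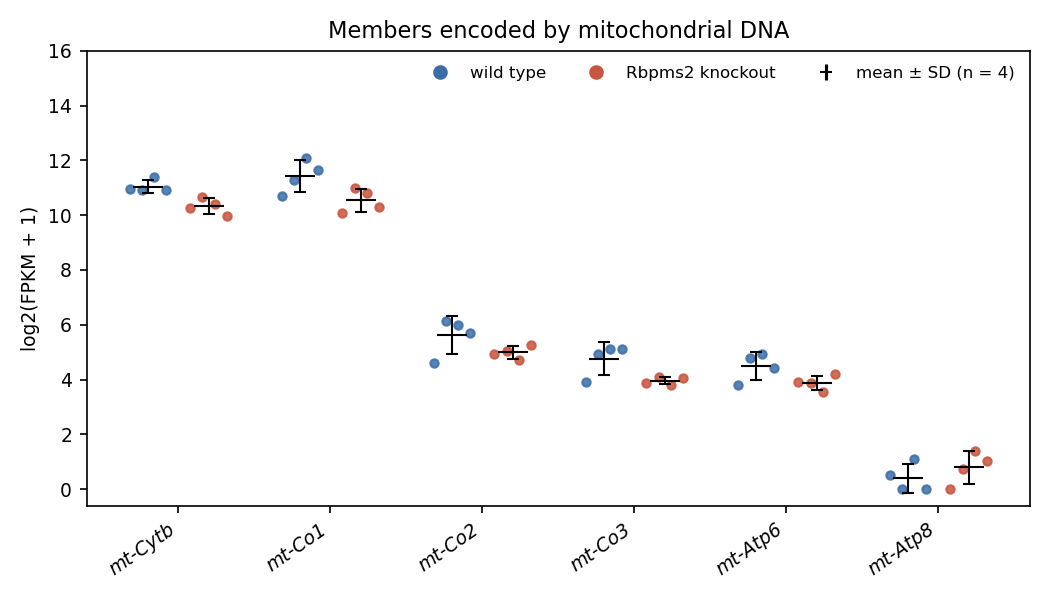
Points are the single libraries on the log2(FPKM + 1) scale for the 6 members encoded by mitochondrial DNA, wild type in blue and knockout in red, with the mean and SD of 4 libraries. mt-Cytb and mt-Co1 stand well above the other 4, and mt-Cytb is the only one of the 6 whose genotypes do not overlap with every knockout point lower.

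Some of the mitochondrial genes have near-identical copies elsewhere. Of the 75-base windows of mt-Atp6, mt-Co2 and mt-Co3, 99.5%, 99.5% and 99.9% occur letter for letter in annotated nuclear copies (Gm10925, Gm28661 and Gm13341, and Gm28437), and these genes stood at 22.5, 51.6 and 27.7 FPKM in wild type. For mt-Co1 the share was 39.8% and for mt-Cytb 0%, and they stood at 2927 and 2126 FPKM. For mt-Atp8, the lowest of the set, the share was also 0%, but 21.1% of its bases overlap mt-Atp6. The treatment of reads with several locations and the read length are not known here, so levels of mt-Atp6, mt-Co2, mt-Co3 and mt-Atp8 are uncertain.

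Base composition moved with genotype across the whole table, and the members took part in it. When the tested genes were ordered by transcript GC and cut into 10 equal bins, the bin lowest in GC had a median log2 fold change of 0.52 and the highest bin -0.89. Over the 42 tested nuclear members, Spearman's rho between GC content and log2 fold change was -0.49, against -0.37 over 11220 genes. The genes share their libraries, so these are descriptions. The mitochondrial members, at 36.0% to 39.9% GC, were lower although genes of that GC content were higher on the whole, and their fold changes grew when each library's trend against GC was removed by loess (the GC correction). Cox7b2, at 36.7% GC, stayed higher (log2 fold change 2.99, limma adjusted p = 0.00174), and so did Cox8c, at 48.7% GC (log2 fold change 2.14), while Cox4i2, at 56.8% GC, stayed lower (log2 fold change -6.65). With the correction 8 members were called higher and 13 lower, beside 1665 and 2662 of 11220 genes.

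**Figure D5:**
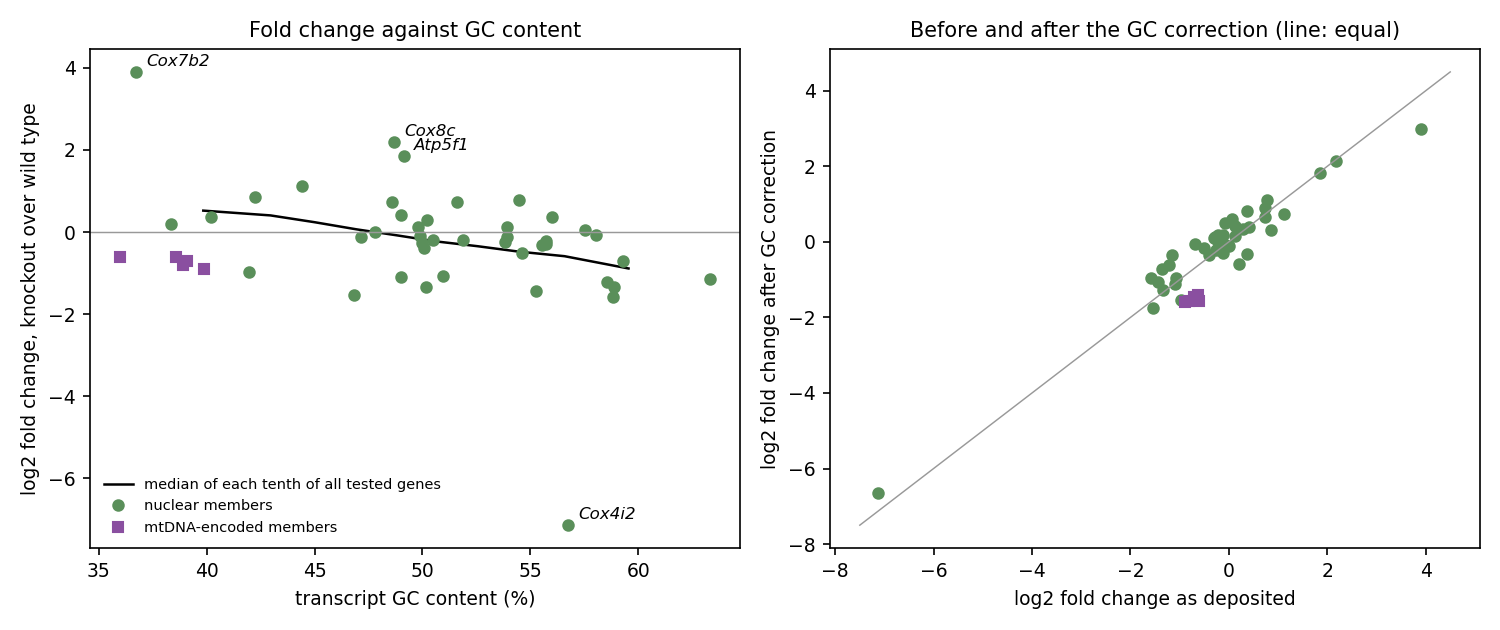
Left, log2 fold change of each tested member against the GC content of its transcript in percent, with the medians of 10 equal bins of all tested genes as a line. Right, log2 fold change after the GC correction against that before it, with a line where both are equal. The purple squares of the mitochondrial members, between -0.61 and -0.89 on the left, lie below the line on the right.

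Cytochrome c, which carries electrons between the bc1 complex and the oxidase, has a somatic form (Cycs) and a testis form (Cyct). Of these genes and Hccs, which attaches the heme, 2 of 3 rose and none fell, against 17.7% of all tested genes called higher, and after the GC correction 1 of 3 was called. Cyct had 68.9, 162, 117 and 42.2 FPKM in wild type and 422, 456, 366 and 499 FPKM in knockout. The groups did not overlap and the testis form was 4.47-fold higher (log2 fold change 2.31, standard error 0.35, limma adjusted p = 4.39e-04), called under all 21 alternatives. Hccs rose 2.09-fold (log2 fold change 1.03, standard error 0.28, limma adjusted p = 0.0118), but was not called after the GC correction (limma adjusted p = 0.155), and Cycs did not pass.

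Median log2 fold changes of the other gene lists of the pathway, against -0.12 for all tested genes, were 1.03 for cytochrome c, -1.05, -0.19 and 0.27 for assembly of complexes III, IV and V, 0.22 for complex II, 0.0046 for mitochondrial DNA and RNA and -0.79 for regulators of respiratory genes. Of all tested genes 25.6% were called lower and 17.7% higher, and the counts of assembly genes stand beside these shares. For complex III, 4 of 6 fell and none rose. Uqcc2, an assembly factor for cytochrome b, had 428, 459.9, 531 and 512 FPKM in wild type and 199, 171, 187 and 191 FPKM in knockout, without overlap (log2 fold change -1.36, standard error 0.15, limma adjusted p = 6.20e-05). Lyrm7, which delivers the Rieske protein, and Ttc19 fell 3.54-fold and 2.16-fold. For complex IV, 2 of 19 tested genes rose and 8 fell (leaving out wild-type replicate 3 or knockout replicate 4 left 0 higher, and leaving out knockout replicate 1 or any other library of wild type left 1). Coa3, which stabilizes the newly made mt-Co1 protein, had 86.5, 113, 98.4 and 79.1 FPKM in wild type and 34.5, 27.3, 45.1 and 34.5 FPKM in knockout, and Coa7 and Coa5 fell 2.24-fold and 2.13-fold. For complex V, Atpaf1, a chaperone of subunit beta, was the only 1 of 5 called higher (log2 fold change 0.72, standard error 0.25, limma adjusted p = 0.0398), and that call ended without wild-type replicate 2 (limma adjusted p = 0.0915), 3 (limma adjusted p = 0.0897) or 4 (limma adjusted p = 0.0935), knockout replicate 1 (limma adjusted p = 0.0512), 3 (limma adjusted p = 0.0551) or 4 (limma adjusted p = 0.110).

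Complex II, which has no mitochondrially encoded subunit, had a catalytic gene, Sdha, that rose. It had 53.4, 42.4, 44.7 and 50.1 FPKM in wild type and 129, 109, 78.8 and 148 FPKM in knockout, without overlap (log2 fold change 1.24, standard error 0.21, limma adjusted p = 9.74e-04). Sdhd, a membrane anchor, rose 1.72-fold, and the assembly factor Sdhaf4 fell (log2 fold change -0.78, standard error 0.26, limma adjusted p = 0.0325), giving 2 of 8 higher and 1 lower, beside 17.7% and 25.6% of all tested genes. The Sdhaf4 call ended when any of 5 libraries was dropped (replicates 1 and 2 of wild type, replicates 1, 2 and 4 of knockout), at limma adjusted p values between 0.0559 and 0.0919, and 3 were higher without wild-type replicate 1. Of 20 tested genes that copy, transcribe or process mitochondrial nucleic acids, 4 fell and none rose, so that the share lower was below the 25.6% of all tested genes (2 rose after median-of-ratios scaling or without the 3 libraries highest in granulosa and stromal markers, and 2 fell without wild-type replicate 1, where Polrmt had limma adjusted p = 0.0516). Elac2, which cuts tRNAs from mitochondrial transcripts, had 44.7, 43.8, 32.9 and 44.1 FPKM in wild type and 8.68, 6.17, 3.52 and 11.1 FPKM in knockout (log2 fold change -2.42, standard error 0.30, limma adjusted p = 1.24e-04). Fastkd1 fell 4.36-fold and the mitochondrial RNA polymerase gene Polrmt 2.34-fold, the latter not called after the GC correction (limma adjusted p = 0.383). Among 12 tested regulators of respiratory genes 6 fell and none rose, against 25.6% and 17.7% of all tested genes, with 4 lower without wild-type replicate 4 and 3, a share close to that of all genes, after the GC correction. Pprc1, a coactivator of the PGC-1 family, had 17.0, 19.0, 17.4 and 18.9 FPKM in wild type and 6.0, 3.34, 3.73 and 5.36 FPKM in knockout (log2 fold change -1.79, standard error 0.23, limma adjusted p = 1.75e-04). Egln1, an oxygen sensor, fell 3.05-fold and the nuclear receptor gene Esrra 5.59-fold, from a level of only 2.04 FPKM, and both calls ended after the GC correction (limma adjusted p = 0.0503 and limma adjusted p = 0.254).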

How the data were processed

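RNA of 8 tubes of P1 oocytes, 4 wild type and 4 knockout by the genotype label, was amplified and sequenced, although the labels' growth text speaks of microarrays. The authors deposited FPKM values per Ensembl gene. Per the submitters' processing notes, tools were cutadapt, HISAT2 and HTSeq on GRCm38/mm10, without versions. Symbols, exon lengths and transcript GC content came from GENCODE M21. Genes reaching 1 FPKM in 4 or more libraries entered limma 3.58.1 in R 4.3.3 (linear model with trended empirical Bayes) with values as log2(FPKM + 1), a scale that understates changes of low genes, with Benjamini-Hochberg adjustment over 11235 genes. Whole reads were recovered from the steps of the values for 97.4% to 97.6% of them within 0.02 reads. Paralog shares and sums are descriptions without a test. Named genes were the mitochondrial members, Cyc1, paralog sets, up to 5 called genes per complex and direction, the highest nuclear gene of each complex and up to 3 called genes per pathway list. The members and lists were chosen with earlier results of these data known. Alternatives changed the pseudocount, filter, scaling, GC correction, model and libraries. The fitting was tested on simulated data with independent noise for each gene. There, 15 of 104 planted 2-fold changes and 75 of 96 planted 4-fold changes were called, all in the right direction. Of 11035 unchanged genes, 6 were called. Most 2-fold changes were thus missed in that simulation. Unlike the data, it held few changed genes and no GC trend or marker differences among libraries.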

Additional observations from a re-analysis of the deposited data

Results flagged for a closer look

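Libraries far from the other 3 of their genotype were found in 7 of 96 gene-by-genotype groups of 4, by a gap whose share of the group's range passed Dixon's critical value, and chance alone marks about 1 group in 20. Wild-type replicate 3 had 2672 FPKM of mt-Cytb, against 1913 to 1999 FPKM in the others. Knockout replicate 2 had 296.4 FPKM of Cox5b (163.8 to 185.5 in the others) and 355.8 FPKM of Atp5c1 (206 to 219.2). Knockout replicate 3 had 211.9 FPKM of Atp5a1 (346.4 to 356.6 in the others) and 240.6 FPKM of Atp5h (161.8 to 168.8). Cox6a2 stood out in wild-type replicate 4, with 5.478 FPKM against 0.8621 to 1.332 FPKM, and in knockout replicate 3, with 0.2469 FPKM from 2 reads against 0 in the others. Knockout replicates 2 and 3 and wild-type replicate 3 were also the libraries highest in granulosa and in stromal markers, and the part of those cells in these values was not tested.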

How the results depend on the processing

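Over 21 alternatives, 11 of the 24 called genes were called every time, and none of the 24 changed direction. Leaving out 1 library gave 5 to 8 genes higher (5 without wild-type replicate 4), 12 to 17 lower and 1 to 5 mitochondrial genes lower. The same fits called 1516 to 1949 of all 11235 tested genes higher and 2393 to 3011 lower. Mitochondrial genes called lower numbered 0 without a filter, 1 after median-of-ratios scaling and 1 after quantile normalization, 5 with the GC correction and 5 with the GC correction and replicate block. Of all genes, 2786 of 18645 were lower without a filter, 2493 of 11158 after median-of-ratios scaling and 2511 of 11235 after quantile normalization. With the GC correction 2662 of 11220 were lower, and 2691 with the block added. The replicate block alone gave 8 higher, 16 lower and 3 mitochondrial genes lower, beside 2113 higher and 2921 lower of 11235 genes. Each library's deviations from the mean of its genotype were compared over the tested genes. Between same-numbered libraries these deviations correlated at 0.185, 0.0158, 0.361 and -0.053, so the numbers were not taken to pair the libraries. Genes that changed sign were all uncalled with the values as deposited, but Cox4i1 and Cox7c were called after the GC correction. With the GC correction, with or without the block, log2 fold changes became -0.12 (Atp5l), 0.17 (Atp5mpl), 0.054 (Atp5o), -0.31 (Atp5s), 0.50 (Cox4i1), 0.13 (Cox6b2), -0.59 (Cox7c), 0.19 (Cyc1) and 0.097 (Uqcr10). Median-of-ratios scaling gave 0.028 (Atp5mpl), 0.072 (Cox4i1), 0.033 (Cox6c) and 0.057 (Uqcrh), quantile normalization -0.0014 (Uqcrc1), array weights -0.042 (Atp5l) and the fit without the 3 libraries highest in granulosa and stromal markers -0.17 (Atp5l). Leaving out 1 library gave -0.10 to 0.078 (Atp5l), -0.19 to 0.0082 (Cox4i1), -0.46 to 0.013 (Cyc1), -0.045 to 0.27 (Uqcrc1) and -0.27 to 0.0041 (Uqcrh). The causes were not tested. FPKM of genes with few reads, such as Cox6a2 and mt-Atp8, are limited by depth.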
